A study of Mus musculus with 2 samples.

Results

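Gata4, Gata6, Sox17, Sox7, Foxa2, Hnf4a, Pdgfra and Dab2 are 8 genes by which primitive endoderm is commonly recognised in the mouse. They were taken as a set of known regulators and surface genes of that lineage, with earlier results of these data known. Their probes were found through the RefSeq accession that the array files give for each probe. All 8 genes had a probe, 10 probes in all, among 20823 genes that could be named on the arrays. All 10 probes were well above background on both arrays, so all 8 genes belong to the 16608 named genes measured on both.

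RNA came from Baf53a cKO ES cells, an E14-derived line in which both alleles of Baf53a were mutated with CRISPR/Cas9 and a Tet-repressible, CRISPR-resistant Baf53a kept the cells alive. One arm, called Baf53a-expressing, was transfected with a pCAGIP-Myc vector for Baf53a, and the other, called Baf53b-expressing, with the same vector for Baf53b, the form of this BAF complex subunit that is used in neurons. In both arms 1 μg/mL Tet was added 48 h after transfection and kept for 6 days in medium with serum and LIF, which maintains undifferentiated ES cells. The comparison asks whether ES cells that live on Baf53b express the same genes as ES cells that live on Baf53a, and there was 1 array per arm.

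Both arms therefore share the mutated alleles, the shut-off Baf53a transgene and Tet, and differ in the insert of the vector. The line is 1 clone, the vector is driven by the strong CAG promoter, and neither wild-type E14 cells nor cells given an empty vector were on an array. Whether transfected cells were selected before RNA was isolated is not given in the sources used here. Untransfected cells lose their Tet-repressible Baf53a during the 6 days, and the share of them left in each dish was not measured on these arrays. With 1 array per arm nothing could be set against a spread between cultures, so values are given without tests or p-values. Spots repeated on an array carry the same labelled RNA and are not replicates.

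Primitive endoderm is the layer of the late blastocyst that covers the epiblast and later gives rise to the visceral and parietal endoderm of the yolk sacs. FGF4 made by epiblast precursors acts through FGF receptors and ERK and favours primitive endoderm, and NANOG opposes it. GATA6 is active first in this lineage, PDGFRA, SOX17 and GATA4 follow, and SOX7 marks a later stage. Forced expression of Gata4 or Gata6 is known to turn ES cells into endoderm-like cells, and low levels of these transcripts are usual in serum cultures, which are mixtures of cell states.

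All 8 genes read higher in Baf53b-expressing cells than in Baf53a-expressing cells, and every one of these differences was small. On a log2 scale with each array's 75th percentile set to 0, the differences ran from 0.05 for Hnf4a to 0.40 for Dab2, with a median of 0.24, a 1.18-fold difference. Signals are printed as scanned and differences and folds after this scaling, which sets 1161 on the Baf53a-expressing array equal to 1128 on the other, so a fold is slightly larger than the ratio of the printed signals. Over all 16608 genes, 49.1% were higher in Baf53b-expressing cells and the median difference was 0.00. Dab2, Pdgfra, Foxa2 and Sox17 were at least 1.2-fold higher, 4 of the 8 genes, against 8.47% of all genes. The 8 genes and the 1.2-fold limit were chosen with earlier results of these data known, so these shares are a description only. With normexp background correction only Sox17 was past this limit of 0.263 on the log2 scale, at 0.266, with Dab2 at 0.259, Pdgfra at 0.252 and Foxa2 at 0.249, against 2.91% of all genes. None of the 8 was at least 1.2-fold lower, as 3.41% of all genes were, and none was 2-fold apart, as 0.193% were. Sox17, at 0.27, lay just inside the 1.2-fold limit of 0.26, and Gata4, at 0.22, just outside it.

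These shares depend on the scaling of the arrays. Of all genes at least 1.2-fold apart, 71.3% were higher in Baf53b-expressing cells with the 75th percentile, 50.7% with quantile normalization, 49.9% with each array centred on its median and 54.1% with cyclic loess. The 8 genes were all higher under each of these scalings, as the plot of the 8 genes by processing setting shows. Centred on the median, 35.6% of all genes were higher and the median over all genes was -0.05. The median of the 8 genes was 0.19, which is 0.246 above that of all genes, as it was with the 75th percentile. Of the 8 genes, 2 were at least 1.2-fold higher, against 5.89% of all genes.

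**Figure D1:**
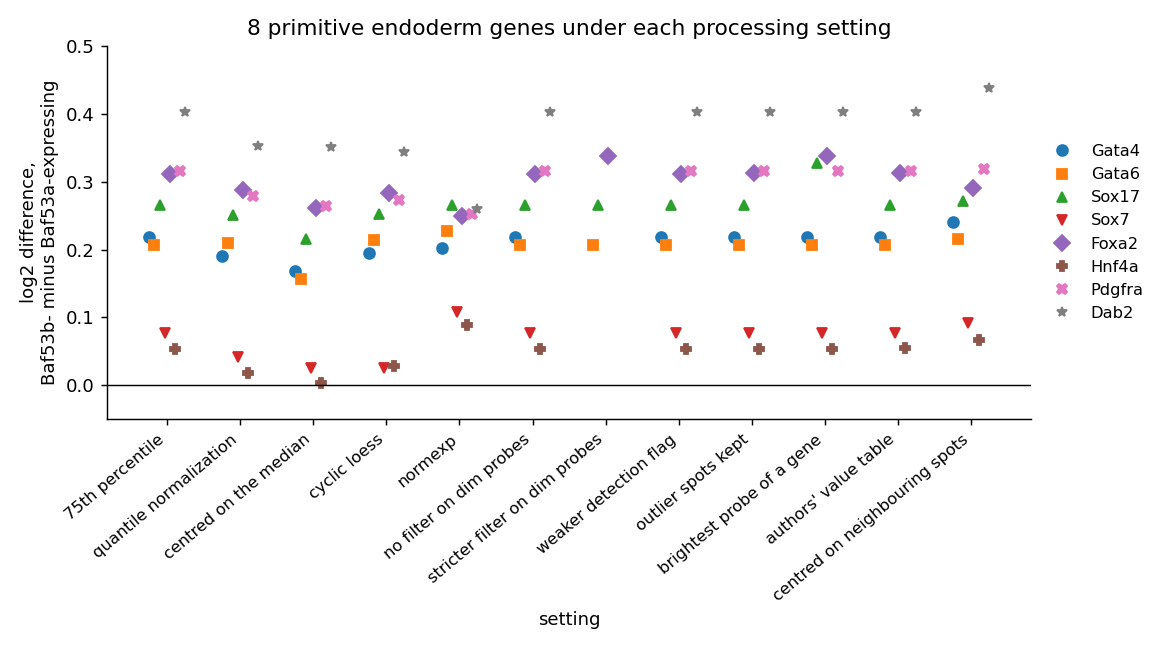
Difference of each of the 8 genes (log2, Baf53b- minus Baf53a-expressing) under the scaling by the 75th percentile and 11 other processing settings; each symbol is 1 gene, and a gene without a symbol was not measured under that setting. All symbols lie above 0, Hnf4a and Sox7 lowest, with Hnf4a at 0.00 when each array was centred on its median.

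Differences also varied with brightness, which was described in 5 groups of equal size. Dim probes read slightly higher in Baf53b-expressing cells and bright probes slightly lower, with a median difference of 0.10 in the dimmest group and -0.06 in the brightest. The 10 probes of the 8 genes lay in the middle: 3 in the second group from the dim end, 6 in the third and 1 in the fourth, where the medians were 0.05, 0.02 and -0.02. Among the 5346 genes within the range of mean signal of the 8 genes, from 121.9 to 912.1, the median difference was 0.02 with an SD of 0.15 over genes. In that range 55.1% of genes were higher and 5.07% at least 1.2-fold higher.

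**Figure D2:**
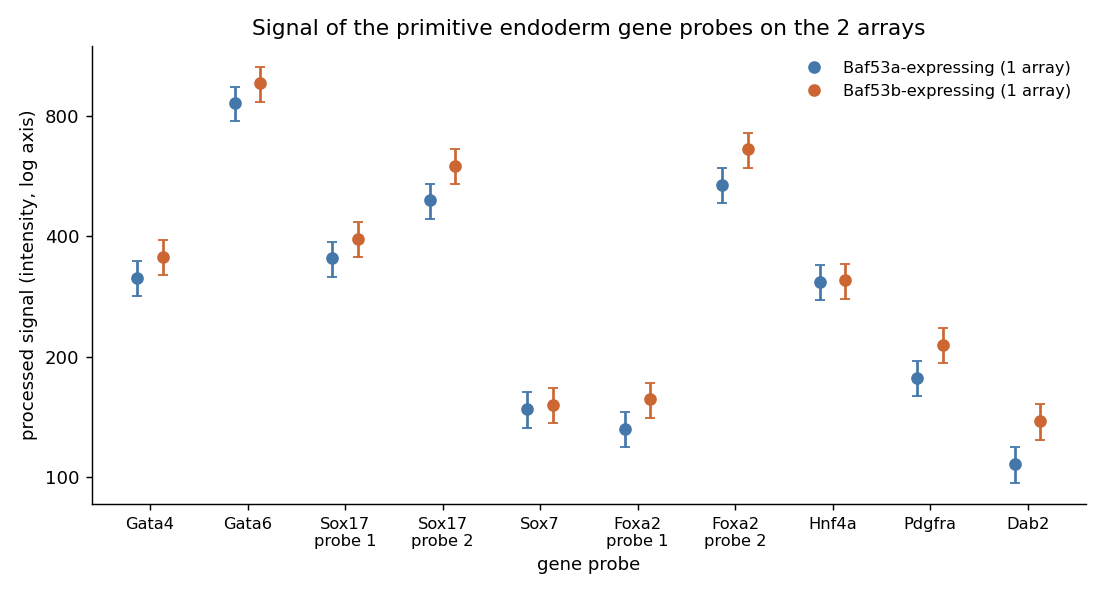
Processed signal (intensity, log axis) of the 10 probes of the 8 genes on the Baf53a-expressing array (blue) and the Baf53b-expressing array (orange), 1 array each. Bars are the error that the scanner software gives for each signal, about 10%; the orange point lies above the blue one for every probe, by least for Hnf4a (308.1 and 310.7) and by most for Dab2 (107.6 and 138.1).

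The labels were checked first. The probe of Actl6b, the gene of Baf53b, gave a signal of 3.40 in Baf53a-expressing cells, not well above background, and 119.2 in Baf53b-expressing cells. The latter was at least 14.5-fold higher, counted from the lowest signal that was well above background. With normexp background correction, which compresses dim signals, it was 2.86-fold higher. Actl6a, the gene of Baf53a, read 3806 and 3600, a scaled difference of -0.04 beside the -0.06 of equally bright probes. It thus gave no check of the Baf53a-expressing label. The probe's position in the transcript is not given, so its reading does not separate the endogenous transcript from that of the vector. Pou5f1, Nanog, Sox2, Zfp42, Esrrb and Klf4, markers of undifferentiated ES cells, were all well above background on both arrays. Their differences ran from -0.15 for Esrrb to 0.07 for Sox2, with a median of -0.09 beside the -0.06 of equally bright probes. The name primitive endoderm is therefore used here for the genes and not for the cells.

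The GATA factors were examined as the upstream regulators. Gata6, which encodes a zinc finger transcription factor active at the onset of the lineage, gave a signal of 861.4 on the Baf53a-expressing array and 965.9 on the Baf53b-expressing array. On the log2 scale these were -0.43 and -0.22, a difference of 0.21. Gata4, a close relative that is switched on later in the same cells, gave 314.9 and 355.9, which were -1.88 and -1.66 on the log2 scale and 0.22 apart. The scanner software attaches an error of about 10% to each of these signals, or 0.20 on a log2 difference, and both differences were barely larger than it.

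The SOX factors did not read alike. Sox17 had a pair of probes. The first gave 352.6 and 394.6, a difference of 0.20 that did not exceed its error of 0.20, and the second gave 492.4 and 600.2, a difference of 0.33. Their mean was 0.27, so which probe is read decides whether Sox17 passes the 1.2-fold limit. Sox7, an F-group relative of Sox17 found in primitive and parietal endoderm, gave 147.9 and 151.5. Its difference, 0.08, was below the software error of 0.21 and close to the median of 0.05 of probes as bright.

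Foxa2 and Hnf4a encode factors of visceral endoderm and, later, of the gut and liver. The first Foxa2 probe gave 132.1 and 156.5, and the second 537.6 and 660.3. Their differences, 0.29 and 0.34, lay close together, both exceeded the error, and their mean was 0.31, the largest among the 6 regulators. Hnf4a, a nuclear receptor that controls genes for serum proteins in visceral endoderm, gave 308.1 and 310.7. Its difference of 0.05 was the smallest of all 8 genes and came to 0.00 with each array centred on its median. The 6 regulators together had a median difference of 0.21.

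The surface genes stood above that, with a median of 0.36. Pdgfra encodes the receptor for PDGF-A and is widely used to sort primitive endoderm cells. Its probe was printed 10 times on each array, and this made it the best measured of the 8 genes. In Baf53a-expressing cells the lowest spot read 166.5, the median 178.4 and the highest 188.3. In Baf53b-expressing cells these were 198.7, 214.9 and 234.3. All 10 spots of the second array lay above the highest spot of the first, and the spots did not overlap. Position by position the difference ran from 0.22 to 0.43, with an SD of 0.08 over the 10 positions. The mean signals, 177.4 and 214.4, were 0.32 apart after scaling, which is 1.24-fold. These spots give the precision of reading 1 labelled RNA on 1 array, not the spread between cultures.

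**Figure D3:**
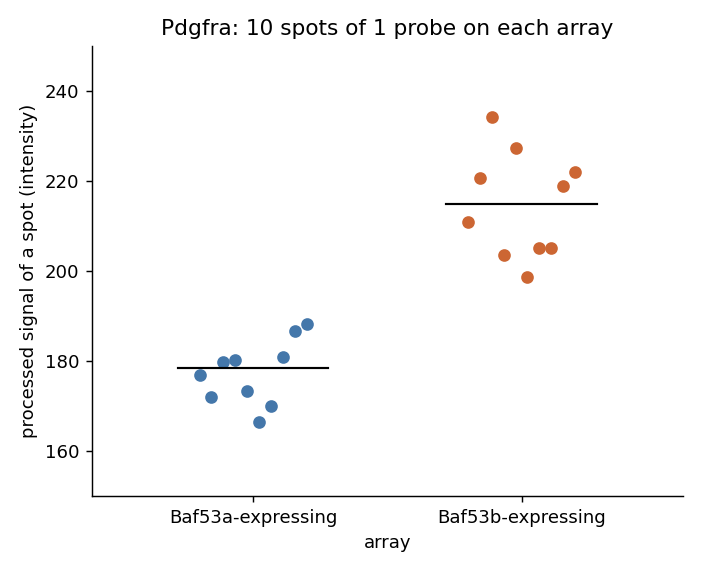
Processed signal (intensity) of each of the 10 spots of the Pdgfra probe on the Baf53a-expressing array (blue) and the Baf53b-expressing array (orange); horizontal lines are medians, 178.4 and 214.9, and the axis does not start at 0. The highest Baf53a-expressing spot, 188.3, lies below the lowest Baf53b-expressing spot, 198.7.

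Dab2 encodes a clathrin adaptor that sits under the cell surface, carries LRP2 and cubilin into the cell and is needed to order the endoderm around the epiblast. Its signals of 107.6 and 138.1 gave the largest difference, 0.40 after scaling, or 1.32-fold. It was read from 1 spot, like every other probe here but that of Pdgfra, in the second brightness group, where differences over all probes had an SD of 0.21, and it came to 0.26 with normexp.

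For probes with at least 5 spots, the spots put the SD of a single-spot difference at 0.12 in the second brightness group, 0.08 in the third and 0.07 in the fourth. By the wider error of the scanner software, 7 of the 10 probes were higher by more than their error, against 11.1% of all named probes. The exceptions were Sox7, Hnf4a and the first Sox17 probe. The spots around each of the 10 probes, taken as a check of position on the slide, had median differences from -0.04 to 0.02. Across the 10 probes, brightness and difference had a correlation of r = -0.05, given as a description since the probes share both arrays.

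**Figure D4:**
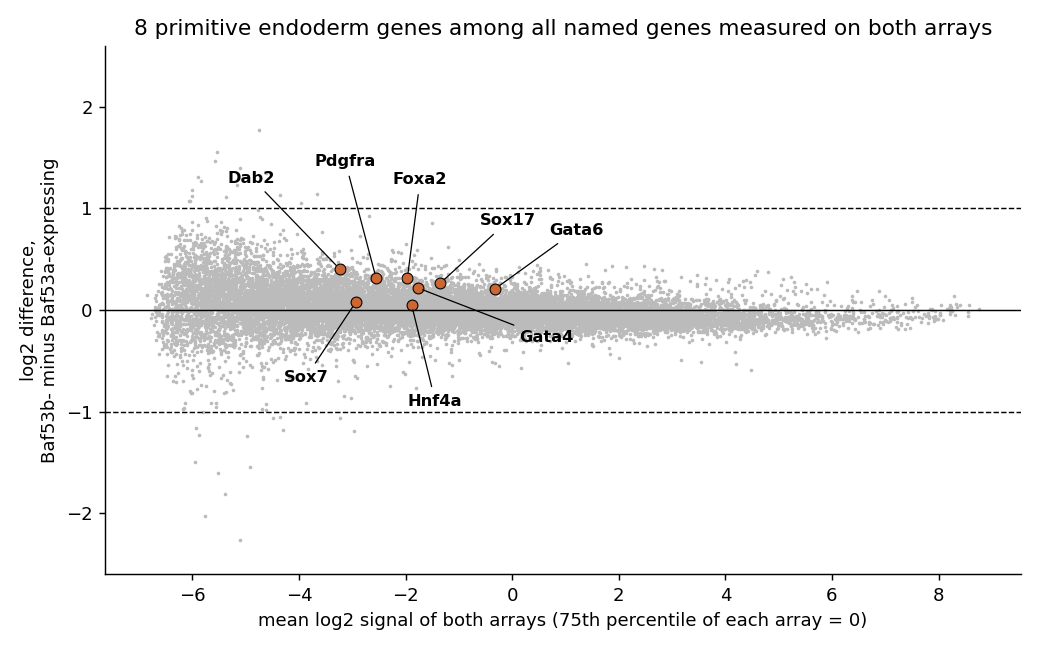
Difference between the arrays (log2, Baf53b- minus Baf53a-expressing) against mean log2 signal for 16608 genes (grey) and the 8 primitive endoderm genes (orange); dashed lines mark a 2-fold difference. The 8 genes lie between 0.05 and 0.40, above the zero line and inside the grey cloud, which widens towards dim genes.

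Promoter sequence was available for Foxa2, Hnf4a, Pdgfra and Dab2, as the 250 bases up to each annotated start in RefSeq (GRCm38.p6). The windows were searched on both strands for AGATAA or TGATAA, forms of the motif bound by GATA factors, and for ACAAT (SOX), TGTTTAC (FOXA) and CAAAGTCCA (HNF4A). The windows of Foxa2 and Dab2 are shown because these genes had the largest differences among the regulators and over the whole set. Dab2, at the outermost of its 2 annotated starts (plus strand, chr15:6299539-6299788), held TGATAA, in capitals, and 2 CpG. The window of the other annotated Dab2 start, chr15:6386498-6386747, held none of the motifs and 17 CpG. Foxa2 (minus strand, chr2:148046970-148047219), at the outermost of its 3 annotated starts, held none of the motifs and 6 CpG.
Dab2: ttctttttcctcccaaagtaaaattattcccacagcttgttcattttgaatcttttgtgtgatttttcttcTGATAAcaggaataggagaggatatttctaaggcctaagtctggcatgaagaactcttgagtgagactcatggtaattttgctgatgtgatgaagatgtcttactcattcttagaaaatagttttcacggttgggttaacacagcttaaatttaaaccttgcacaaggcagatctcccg
Foxa2: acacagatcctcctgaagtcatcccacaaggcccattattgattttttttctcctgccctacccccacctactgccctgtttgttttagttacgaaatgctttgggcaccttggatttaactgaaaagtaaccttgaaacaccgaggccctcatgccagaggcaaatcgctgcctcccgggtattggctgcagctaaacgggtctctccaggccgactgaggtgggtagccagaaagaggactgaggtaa

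A GATA motif was also found in 1 of the other Foxa2 windows and in 1 of the Hnf4a windows, the latter with ACAAT as well. The Pdgfra window held none of these letters. Over all 32851 windows of the same length, 16.6% held AGATAA or TGATAA, 27.7% ACAAT, 3.17% TGTTTAC and 0.384% CAAAGTCCA. A match is a match of letters, and the arrays hold no measurement of binding.

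Relatives of the 8 genes from the same gene families were read next. Of 10 relatives 9 were measured, 5 higher and 4 lower, with a median of 0.04 that turned to -0.01 with each array centred on its median. Gata3, a trophoblast factor, was 0.33 higher and Foxa1, a partner of Foxa2 in gut endoderm, 0.28 higher, both past 1.2-fold. Gata5 stood at -0.12, Gata2 at -0.03, Foxa3 at -0.15 (0.02 with normexp) and Dab1, the neuronal relative of Dab2, at -0.19 over 4 probes. Pdgfrb, the receptor of mesenchymal cells, stood at 0.12.

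Other regulators of extraembryonic endoderm showed no single direction. Of 12 measured, 9 were higher and 3 lower, with a median of 0.09, and 2 were at least 1.2-fold higher. Those were Nr2f2, at 0.40, and Nr2f1, at 0.32, nuclear receptors of the COUP-TF family that are found in extraembryonic endoderm. The Nr2f2 probe, at 37.7 and 48.38, and one of the Nr2f1 probes, at 33.82 and 41.64, lay in the dimmest group, where the median was 0.10 and the SD over probes 0.32. Foxq1 stood at 0.26. Hhex, a homeobox factor of anterior visceral endoderm, stood at -0.11 and Otx2, which acts in the same cells, at -0.10.

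Genes of the FGF and ERK input, which primitive endoderm depends on, lay around 0. Of 13 genes 5 were higher and 8 lower, with a median of -0.01 that turned positive with quantile normalization (0.02), cyclic loess (0.02) and normexp (0.01). The number higher was then 8 with quantile normalization or cyclic loess and 7 with normexp. Centred on the median, 3 of 13 were higher and the median was -0.06. Fgf4, the ligand, read 17224 and 15693, a difference of -0.09. Its target Dusp6, an ERK phosphatase, stood at -0.07. Both lay beside the -0.06 of equally bright probes. Fgfr2 was 0.24 higher as the mean of probes at 0.46 and 0.02, which disagree. Sos1, an exchange factor for RAS, read lowest, at -0.46, from signals of 18.1 and 12.76 in the dimmest group.

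The ligands of the PDGF receptor did not go with it. Pdgfa, the main ligand of PDGFRA in the embryo, read lower by both of its probes, with a mean difference of -0.12 beside the -0.06 of equally bright probes. Pdgfc stood at 0.02. Pdgfb stood at -0.49 as the mean of probes at -0.94 and -0.05, and Pdgfd was not well above background on either array.

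The partners of DAB2 in uptake were read as receptors and as coat proteins. The receptors read higher. Lrp2 gave 1687 and 2056, a difference of 0.33, and the measured Cubn probe 610 and 693.3, a difference of 0.23. A second Cubn probe was well above background in Baf53b-expressing cells only. It read 11.28 and 21.31, in the dimmest group, which is 1.95-fold after scaling. Amn, which brings cubilin to the surface, stood at 0.08. Among the proteins of the clathrin coat, Cltc stood at 0.00, Ap2b1 at 0.01 and Ap2a1 at -0.32. Myo6, a motor that binds DAB2, was 0.41 higher at signals of 17.51 and 22.53, in the dimmest group. Of the 8 genes 7 were higher, 4 with each array centred on its median.

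Basement membrane genes, which primitive and parietal endoderm express strongly and ES cells also express, read higher throughout: 10 of 10, with a median of 0.13, and 8 of 10 with a median of 0.08 when each array was centred on its median. Lama1, a laminin chain of embryonic basement membranes, gave 22007 and 26327, a difference of 0.30. Col4a2 was 0.31 and Lamb1 0.28 higher, and Col4a1 stood at 0.23. These are bright probes, and probes as bright had negative medians. Lamc1, at 0.05, and Sparc, at 0.01, lay near 0 and were negative, at -0.003 and -0.04, with each array centred on its median.

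Markers of the derivatives were read separately for each layer. Of 8 parietal endoderm genes 7 were higher, 4 of them at least 1.2-fold, with a median of 0.24. Krt8 and Krt18, keratins found in parietal endoderm and also in trophoblast, were 0.44 and 0.32 higher; Krt8 gave 3633 and 4778, and Krt18 gave 38957 and 47401. Plat, the tissue plasminogen activator, was 0.44 higher, and Thbd, thrombomodulin, 0.65 higher, from dim signals of 19.11 and 29.05. Fst stood at -0.12. Of 12 visceral endoderm genes only 9 were measured, 5 higher and 4 lower, with a median of 0.17. This median was 0.07 with quantile normalization, and -0.10 over the 4 genes left by a stricter filter on dim probes. Afp, at 145.3 and 169.3, was 0.26 higher. Apob was 0.32 higher as the mean of dim probes at 0.17 and 0.47, while Trf stood at -0.18, Apoa2 at -0.11 and Apoe at -0.11. Ttr, Apoa1 and Cer1, defining markers of visceral endoderm, were not well above background on either array.

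**Figure D5:**
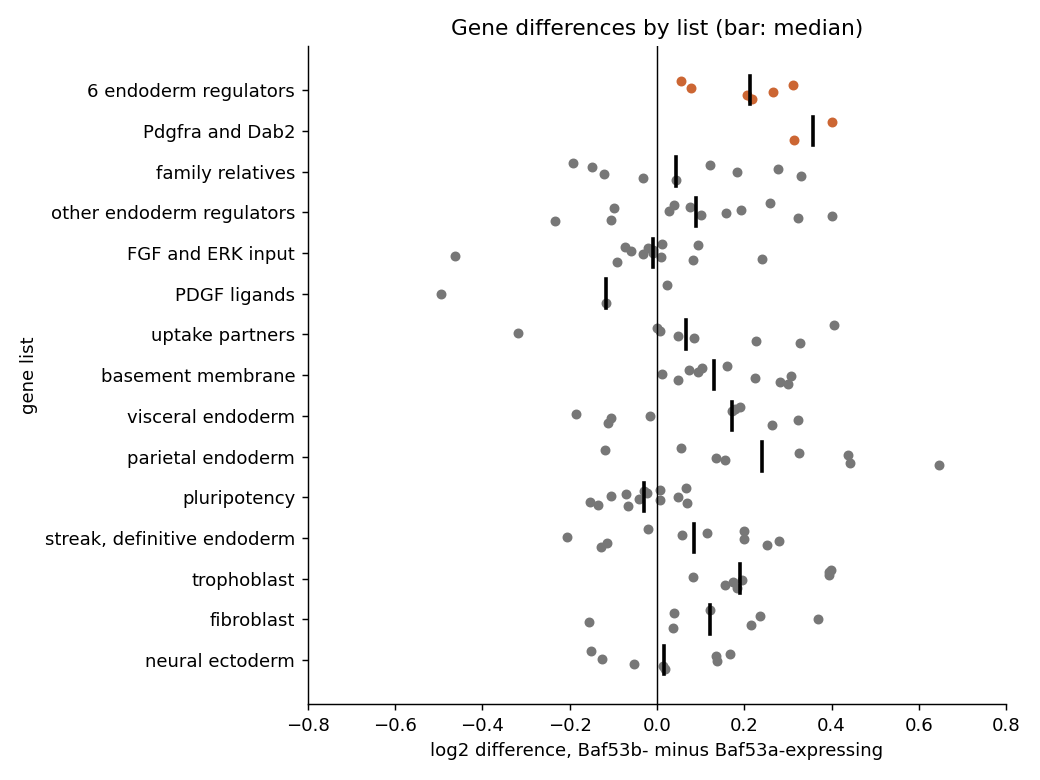
Difference of each measured gene (log2, Baf53b- minus Baf53a-expressing) by gene list; each point is 1 gene, the vertical bar is the median of the list, and the 6 regulators and Pdgfra with Dab2 are in orange. Parietal endoderm (median 0.24), trophoblast (0.19) and basement membrane genes (0.13) also lie mostly to the right of 0, and pluripotency genes (-0.03) around it.

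Markers of other cells were read as well, since some of them went the same way. Of 8 measured trophoblast genes all 8 were higher, 3 at least 1.2-fold, with a median of 0.19. Esx1 was 0.40, Krt7 0.39 and Plac1 0.39 higher, and Cdx2, a defining factor of trophoblast, 0.18 higher. Their summed signal, scaled to the same 75th percentile, was 6745 and 7801, with Tfap2c the brightest, and the defining markers Elf5 and Tpbpa were not well above background. Of 10 fibroblast genes 7 were measured, 6 of them higher, with a median of 0.12. Centred on the median, 4 of 7 were higher and the median was 0.07. A weaker detection flag measured 9, of which 8 were higher, with a median of 0.22. Dcn, at 0.37, was the 1 gene at least 1.2-fold higher, Lum stood at 0.24, Col1a2 at 0.22 and Thy1, the brightest, at -0.15. The summed signals, scaled in the same way, were 1785 and 1772. Thy1 alone read 894 and 780.2 as scanned, before scaling. Postn and Fap were not well above background. Col3a1 was well above background in Baf53b-expressing cells only, at dim signals of 8.73 and 11.31, which is 1.33-fold after scaling. Primitive streak and definitive endoderm genes were 6 higher and 4 lower of 10 measured, with Mixl1 not well above background. Cxcr4 stood at 0.28, Eomes at 0.25 and Evx1 at 0.20, and Mesp1 at -0.21, T at -0.13 and Gsc at -0.12. With normexp Mesp1 and T both stood at 0.01.

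Parietal endoderm genes summed to 60020 and 71928, led by Krt18, and visceral endoderm genes to 31478 and 29395, led by Apoe. Neural ectoderm genes had a median of 0.02, which turned to -0.04 with quantile normalization, and their summed signals, led by Tubb3, were 10655 and 9743. The part of trophoblast-type or other non-endoderm cells in the readings of the 8 genes was not tested. In RNA from whole dishes, more cells of a kind and more RNA per cell cannot be told apart.

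Pluripotency genes lay around 0. Of 13 genes 5 were higher and 8 lower, none by 1.2-fold, with a median of -0.03 that became 0.01 with quantile normalization and with cyclic loess. With each array centred on its median 2 of 13 were higher and the median was -0.08. Nanog, which opposes primitive endoderm, stood at -0.07 as the mean of probes at -0.11 and -0.02. The former gave 8660 and 7787, and the latter 53.14 and 50.93.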

How the data were processed

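Total RNA of each arm was labelled with Cy3 and hybridised to a 1-colour whole-genome mouse array. Per the labels and methods, spots were extracted with Agilent Feature Extraction 11.0.1.1 by the authors. The deposited intensity of a spot has its background subtracted and its spatial trend removed, and the design carries mm9 annotation. A deposited value table holds values of 30488 probes, each a ratio to 1 number per array (1160 and 1126). For the 30479 probes compared, 100% of values lay within 0.1% of that ratio. Its column medians were -1.96 and -1.93 on the log2 scale.

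Control spots and outlier spots (173 and 143) were left out, and no spot was saturated. Log2 intensity was averaged per probe and each array's 75th percentile (1161 and 1128) subtracted. Each array held 43020 spots of 39429 gene probes. Well above background means that 50% or more of a probe's spots carried this flag (75.2% and 76.4% of probes; lowest such signal 8.45 and 9.75), which held on both arrays for 29247 of 39411 usable probes. A gene is the mean of its measured probes. Names came from a RefSeq table of GRCm38.p6, by accession, for 27410 probes.

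For a probe seen on 1 array only, the fold was counted from its dim value or, if higher, from the lowest signal well above background there. It is a lower bound only in the latter case. The genes named were all 8 genes, with the 3 highest and 3 lowest of each list (any gene of a list of up to 10), and genes seen on 1 array only. A single-gene value that this rule would name is not reported here. The 8 genes, the lists and the 1.2-fold limit were chosen with earlier results of these data known. No precision beyond the number of arrays can be given. Steps were tested on simulated data with planted changes larger than 2-fold. That does not show how well differences as small as those of the 8 genes are recovered. Python 3.11.15, numpy 2.4.6, pandas 2.3.3, matplotlib 3.10.9, R 4.3.3 and limma 3.58.1 were used.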

Additional observations from a re-analysis of the deposited data

How the results depend on the processing

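The 8 genes were recomputed under 11 alternatives: centring on the median, quantile normalization, cyclic loess, normexp with an offset of 50, dim probes unfiltered or filtered more strictly, a weaker detection flag, outlier spots kept, the brightest probe of a gene, the authors' value table, and centring on neighbouring spots, which was chosen after seeing the data. Every gene was higher in Baf53b-expressing cells wherever it was measured. Of 83 gene values, 82 moved by less than the spot SD for probes of that brightness and 1 by more, Dab2 at 0.26 with normexp. The median ran from 0.19, centred on the median, to 0.27 with the brightest probe of each gene. Genes at least 1.2-fold higher numbered 2 when centred on the median, 1 with normexp and 3 with quantile normalization or cyclic loess. The stricter filter left 3 of the 8 genes measured, of which 3 were higher and 2 at least 1.2-fold higher. The share of all genes at least 1.2-fold higher was 5.89% centred on the median, 5.55% with quantile normalization, 6.03% with cyclic loess, 12.5% without a filter, 2.91% with normexp and 1.87% with the stricter filter. Centring on the median lowered the 8 genes and all other genes by the same amount. The cause of the other changes was not tested, beyond the smaller number of genes under the stricter filter.

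No paired analysis was possible because a single array represented each arm, and for the same reason leaving out a replicate and the slide as a block were not run. Signal over background limits the dim genes most: in the dimmest of 5 brightness groups the SD of differences over probes was 0.32, against 0.11 in the brightest. No array gives the spread between cultures of 1 arm, so the differences of the 8 genes cannot be set against it.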
